A study of Homo sapiens with 8 samples.

Results

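Metallothioneins and the zinc response were followed through 8 genes, taken by symbol from the 8 per-library gene tables: MT2A, MT1E, MT1F, MT1G, MT1M and MT1X, which code for metallothioneins, SLC30A1, which codes for a zinc exporter, and MTF1, which codes for a zinc-sensing transcription factor. Each symbol stood on 1 row of the 48162 genes listed. The libraries came from KYSE70 and KYSE450, established lines of human esophageal squamous cell carcinoma, and total RNA was sequenced from cells at passages 5 to 10. In each line there was 1 library of cells transfected with a pcDNA3.1 plasmid for the long noncoding RNA NMR, 1 library of the control of that overexpression, 1 library of cells infected with lentivirus for knockdown of NMR, and 1 library of the control of that knockdown. The plasmid pair of groups is called the plasmid arm and the lentiviral pair the lentiviral arm. All cells were grown in RPMI medium with fetal bovine serum. The labels name no addition of zinc, cadmium or a hormone, give no time after transfection or infection, do not say what the control cells received, and do not say whether libraries came from separate cultures. The p-values therefore reflect the spread among these libraries alone, which may be technical.

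Metallothioneins are small cytosolic proteins whose many cysteines bind zinc, copper and cadmium. When free zinc rises, the zinc fingers of MTF1 take up the metal and MTF1 binds metal response elements, short DNA motifs in front of the metallothionein genes and SLC30A1, and raises their transcription. SLC30A1 sits in the plasma membrane and carries zinc out of the cell, so that storage in metallothionein and export are switched on together. MT2A is also known to respond to glucocorticoids and to oxidants, and metallothionein genes are silenced by promoter methylation in some tumours.

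The 6 metallothionein genes lie together on the long arm of chromosome 16 in GRCh38 (GENCODE release 29). MT2A is at chr16:56608199-56609497, MT1E at chr16:56625475-56627112, MT1M at chr16:56632233-56633986, MT1F at chr16:56657694-56660698 and MT1X at chr16:56682424-56684196, all on the plus strand, and MT1G at chr16:56666731-56668065 on the minus strand. SLC30A1 at chr1:211571568-211578742 and MTF1 at chr1:37809567-37859620 are on the minus strand. All 8 are annotated as protein coding. The deposited values were made on hg19, so these positions locate the genes and were not used to count reads.

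The coding sequences of the 3 metallothioneins that were detected and of MT1E, which was not, are shown because the family members can be told apart only where their letters differ. Cysteine codons are in capitals, and the sequences are from the GENCODE release 29 transcripts. Each codes for 61 amino acids, of which 20 are cysteines, 32.8%.
MT2A: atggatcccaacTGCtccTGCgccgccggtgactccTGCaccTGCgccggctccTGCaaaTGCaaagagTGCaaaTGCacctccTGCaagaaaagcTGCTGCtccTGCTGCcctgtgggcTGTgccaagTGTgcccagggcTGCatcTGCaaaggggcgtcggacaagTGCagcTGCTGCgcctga
MT1F: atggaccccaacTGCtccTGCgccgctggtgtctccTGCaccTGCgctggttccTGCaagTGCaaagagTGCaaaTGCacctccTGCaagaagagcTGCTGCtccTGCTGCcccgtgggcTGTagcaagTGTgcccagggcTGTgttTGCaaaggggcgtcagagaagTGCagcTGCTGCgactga
MT1X: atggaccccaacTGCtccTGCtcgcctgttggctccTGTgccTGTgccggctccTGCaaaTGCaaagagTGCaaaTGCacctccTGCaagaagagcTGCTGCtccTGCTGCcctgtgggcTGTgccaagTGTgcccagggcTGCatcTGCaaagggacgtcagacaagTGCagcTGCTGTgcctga
MT1E: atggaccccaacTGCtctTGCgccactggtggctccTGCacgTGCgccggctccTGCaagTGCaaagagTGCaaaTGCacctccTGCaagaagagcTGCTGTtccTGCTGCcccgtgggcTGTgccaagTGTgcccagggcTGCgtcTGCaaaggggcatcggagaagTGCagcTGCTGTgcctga
Over the 186 bases of the coding sequence, identity between pairs of the 6 genes ran from 88.7% for MT1F and MT1X to 95.2% for MT1G and MT2A. Across whole transcripts, the share of 50-base windows that also occurs in transcripts of other genes was 3.02% for MT2A, 1.22% for MT1F, 7.1% for MT1E, 9.87% for MT1M, 16.5% for MT1G and 18.3% for MT1X. With windows of 100 bases, MT1X kept a shared part, 11.3%, and the 5 other metallothioneins had 0%. The sources used here do not give the read length, so MT1X is the member whose reads are least certain to be its own. MT1X also overlaps AC026461.1, a gene on the same strand that covers 18.1% of the exon bases of MT1X and was itself listed at 0 in every library.

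The 250 bases before the RefSeq gene start are shown for MT2A, MT1X and SLC30A1. These are the targets of MTF1 among the 4 members that matched the RefSeq promoter table (GRCh38.p14), and the fourth was MTF1 itself. Capitals mark the letters TGCACNC or TGCGCNC on either strand, the core of the metal response element, where N is any base. No matches overlapped each other in these 3 sequences.
MT2A: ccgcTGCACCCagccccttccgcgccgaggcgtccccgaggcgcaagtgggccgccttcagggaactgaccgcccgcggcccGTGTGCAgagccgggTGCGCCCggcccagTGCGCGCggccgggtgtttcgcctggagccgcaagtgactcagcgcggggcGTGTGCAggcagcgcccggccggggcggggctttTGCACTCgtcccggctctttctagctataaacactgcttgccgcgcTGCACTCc
MT1X: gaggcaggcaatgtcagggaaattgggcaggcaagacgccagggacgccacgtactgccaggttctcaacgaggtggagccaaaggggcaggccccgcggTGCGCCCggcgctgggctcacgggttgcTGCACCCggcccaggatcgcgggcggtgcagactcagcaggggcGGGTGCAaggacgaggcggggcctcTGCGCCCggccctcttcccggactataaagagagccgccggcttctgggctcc
SLC30A1: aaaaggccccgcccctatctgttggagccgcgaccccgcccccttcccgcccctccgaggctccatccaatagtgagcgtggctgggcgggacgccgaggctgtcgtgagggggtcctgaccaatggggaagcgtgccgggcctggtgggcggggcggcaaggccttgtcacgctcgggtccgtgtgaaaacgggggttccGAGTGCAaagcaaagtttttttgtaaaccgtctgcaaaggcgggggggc
The first window is chr16:56608334-56608583 on the plus strand, the next chr16:56682220-56682469 on the plus strand, and the last chr1:211579162-211579411 on the minus strand. The RefSeq starts differ from the ends of the GENCODE spans given above. The MT2A window lies wholly inside the GENCODE span of MT2A, which begins at 56608199, and the MT1X window runs past the GENCODE start of MT1X at 56682424. The RefSeq start of SLC30A1 lies outside its GENCODE span. The core was found 7 times before MT2A, 5 times on the gene's strand and 2 times on the other. It was found 4 times before MT1X, 1 time before SLC30A1 and 0 times before MTF1. Of 35116 promoter windows of this length in the table, 24.8% held 1 or more matches, 0.37% held as many as MT1X and 0.0313% held as many as MT2A. A match describes the letters of the window only, and binding was not measured.

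The libraries held 26401805 to 37937856 reads recovered from the deposited values, so that 1 read in 1 kb of gene was worth 0.0263 to 0.0378 FPKM, a measure of reads that is divided by gene length and by library depth. No gene is listed under the name NMR, so its level is not analysed here. All 5 squamous markers were above 0 in all 8 libraries: KRT5 at 4156 to 19246 FPKM, KRT6A at 2580 to 4398, TP63 at 140 to 654, SFN at 95.1 to 325 and KRT14, the most variable, at 3.2 to 1211 FPKM. The simple epithelial keratin KRT8 stood at 509 to 1632 FPKM. The summed leukocyte markers (3 of 3 measured) reached 0.134 FPKM at most. Of the 5 fibroblast markers, COL1A1 stood at 20.6 to 37 FPKM and COL3A1 at 0.617 to 21.9 FPKM, while LUM reached 1.09, COL1A2 0.262 and DCN 0.0336 FPKM, with DCN at 0 in 6 of 8. The knockdown library of KYSE70 stood apart: mitochondrially encoded genes took 8.63% of its FPKM against 3.84 to 5.75% in the others, and its difference from its control followed the GC content of genes (Spearman correlation -0.483 across 13914 genes, against 0.0393 to 0.0709 in the other 3 pairs).

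Of the 8 genes, 5 were detected and 3 were listed at 0. Averaged over the 8 libraries, MT2A stood at 25.0 FPKM, MTF1 at 7.66, SLC30A1 at 2.96, MT1F at 1.16 and MT1X at 0.39 FPKM. MT2A exceeded MTF1, and MTF1 exceeded SLC30A1, in 8 of 8 libraries each. SLC30A1 exceeded MT1F in 5 of 8 and MT1F exceeded MT1X in 4 of 8, so the order of those neighbours does not hold across the libraries. Among genes above 0 in the same library, MT2A lay between the 71.3 and 86.2 percentiles, MTF1 between 62.9 and 69.6, and SLC30A1 between 46.4 and 64.7.

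MT1E, MT1G and MT1M, inducible metallothioneins of the same cluster, had no read in any library. A count of 0 allows up to 3 reads in a library, by the rule that 3 counts bound a count of 0. The gene lengths behind these FPKM are not known for genes without reads, so no limit in FPKM is given. Of 11 further metallothionein genes and pseudogenes sought by name, 10 were listed, 9 of them at 0 in all libraries. The exception was MT3, a metallothionein best known from brain, which was listed above 0 in 3 KYSE450 libraries, at 0.0387 to 0.163 FPKM. In all, 8 of 20 metallothionein symbols in the tables were above 0 anywhere. MT2A made up 83.1 to 92.5% of their summed level, which ran from 15.5 to 46.4 FPKM.

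**Figure D1:**
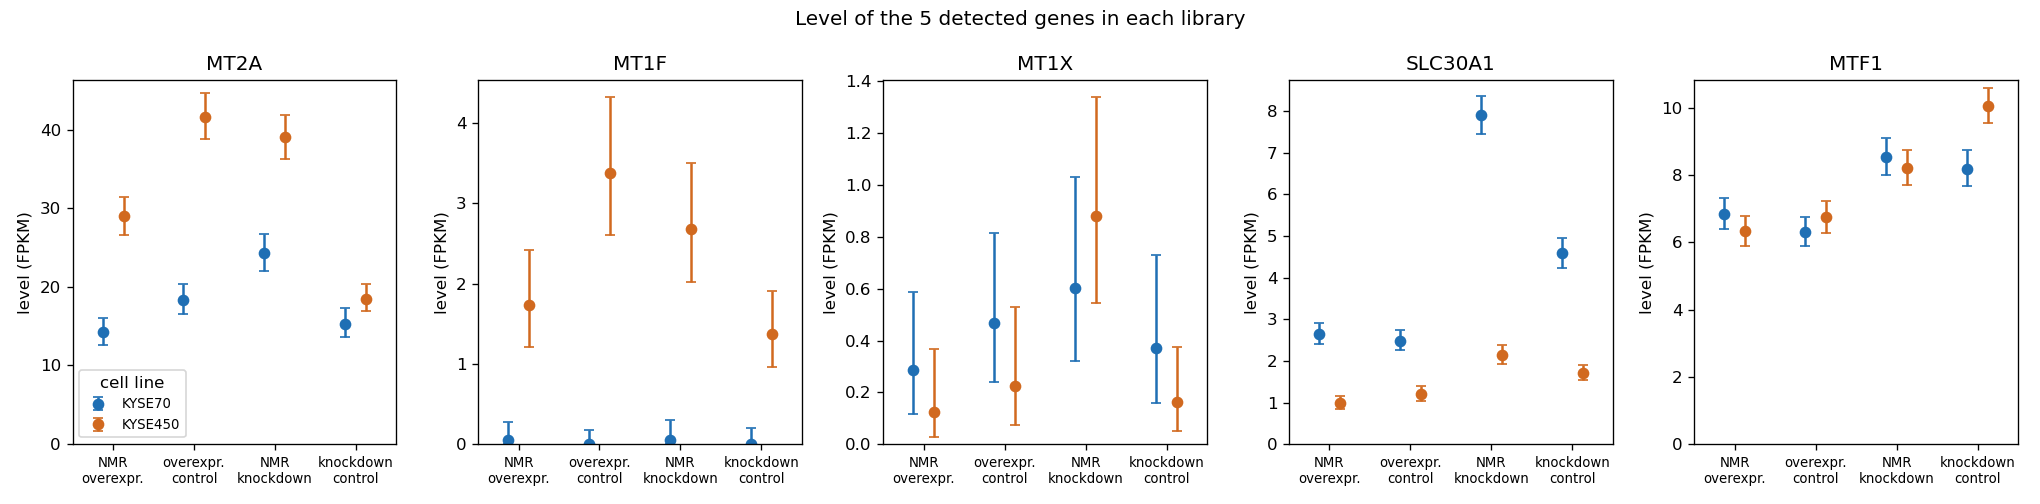
Levels of the 5 detected genes in each of the 8 libraries, in FPKM on linear axes that start at 0, by group and cell line; bars are exact 95% intervals for the reads of that library, which cover counting error only. MT1F lies at or near 0 in the 4 KYSE70 libraries, MT2A is highest in the KYSE450 overexpression control and KYSE450 knockdown, and SLC30A1 is highest in KYSE70 knockdown.

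Between the cell lines, MT2A was lower and SLC30A1 higher in KYSE70 than in KYSE450, MT1F was almost without reads in KYSE70, and MTF1 did not pass the test. With limma, 3 of the 4 members tested were called between the lines (1 higher, 2 lower), but so were 54.0% of the 14311 genes tested (26.6% higher and 27.4% lower in KYSE70), so that a call between the lines was common among all genes. Genes were tested where their mean reached 1 FPKM, on log2(FPKM + 1), which understates the change of low genes, with n = 4 libraries in each line and a threshold of 0.05 on p-values adjusted over all genes tested. MT1F passed that filter through KYSE450 alone, so that it had to differ: its call supports nothing and its values are given as a description. As these are bulk libraries, fewer cells with a transcript and less of it per cell cannot be told apart.

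MT2A, the main metallothionein of most human tissues, had 14.2, 18.4, 24.3 and 15.3 FPKM in the KYSE70 libraries (overexpression, its control, knockdown, its control) against 29, 41.7, 39.0 and 18.5 FPKM in the matching KYSE450 libraries. The KYSE450 library was the higher in each of the 4 groups, but the lines overlapped, because knockdown in KYSE70 exceeded the knockdown control in KYSE450. The means were 18.0 ± 4.5 FPKM in KYSE70 and 32.0 ± 10.5 FPKM in KYSE450 (SD, n = 4 each), with a log2 difference of -0.76 (SE 0.17, limma adjusted p = 0.00856).

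MT1F, a metallothionein of the MT1 branch, had 0.0484, 0, 0.055 and 0 FPKM in the 4 KYSE70 libraries in the same order against 1.74, 3.38, 2.68 and 1.38 FPKM in KYSE450. The lines did not overlap: KYSE70 held 2 reads in all against 188 in KYSE450, a depth-scaled ratio of 0.0115 (exact 95% interval 0.00138 to 0.0421, counting error only). The fitted log2 difference was -1.64 (SE 0.19), and reads fitted directly with voom gave -5.61.

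SLC30A1, the exporter, had 2.65, 2.48, 7.9 and 4.58 FPKM in the KYSE70 libraries against 0.993, 1.2, 2.14 and 1.7 FPKM in KYSE450. Every KYSE70 library was above every KYSE450 library. The means were 4.41 ± 2.52 FPKM in KYSE70 and 1.51 ± 0.514 FPKM in KYSE450 (SD, n = 4 each), and the log2 difference was 1.02 (SE 0.18, limma adjusted p = 0.00334). The differences of MT2A and SLC30A1 kept their call under all 13 alternatives run on the line comparison, from -0.93 to -0.63 for MT2A and 0.86 to 1.49 for SLC30A1.

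MTF1, the regulator, had 6.85, 6.33, 8.56 and 8.19 FPKM in KYSE70 against 6.33, 6.75, 8.22 and 10.1 FPKM in KYSE450. The lines overlapped, at 7.48 ± 1.06 FPKM in KYSE70 and 7.84 ± 1.69 FPKM in KYSE450 (SD, n = 4 each), and the log2 difference of -0.05 (SE 0.14) did not pass limma's test (adjusted p = 0.791). MT1X, below the filter, averaged 0.431 ± 0.136 FPKM in KYSE70 and 0.348 ± 0.357 FPKM in KYSE450 (SD, n = 4 each) and overlapped. Fitted without the filter its line difference was 0.11 (SE 0.11, limma adjusted p = 0.526).

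Of 11 tested zinc importers of the SLC39 family, 2 were higher and 5 lower in KYSE70, a share near the 54.0% called among all genes. Their median log2 difference was -0.37 beside -0.02 over all genes. SLC39A14, which carries zinc and also iron and manganese, had 238 to 315 FPKM in KYSE70 against 52.8 to 113 FPKM in KYSE450 (log2 difference 2.01, SE 0.16, limma adjusted p = 8.74e-05). SLC39A8, its close relative, had 0 to 0.0938 FPKM in KYSE70 against 9.85 to 13.4 FPKM in KYSE450 (-3.57, SE 0.15), and is 1 of the 5 lower calls. SLC39A8, too, passed the filter through KYSE450 alone and had to differ, so its values are a description. SLC39A1, an importer of the plasma membrane, averaged 45.8 FPKM in KYSE70 and 117 FPKM in KYSE450 (-1.34, limma adjusted p = 0.000144). SLC39A11 averaged 13.5 FPKM in KYSE70 and 49.1 FPKM in KYSE450 (-1.78, limma adjusted p = 3.65e-05), and SLC39A6 38.0 FPKM and 58.8 FPKM in the same order (-0.62, limma adjusted p = 0.0031).

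The 6 tested exporters other than SLC30A1 gave 0 higher and 1 lower call, where 54.0% of all genes were called. That call was SLC30A6, a zinc carrier of the Golgi region, at 11.3 to 17.1 FPKM in KYSE70 against 21.9 to 23.9 FPKM in KYSE450 (log2 difference -0.67, SE 0.13, limma adjusted p = 0.00541). SLC30A9, SLC30A5 and SLC30A3 differed by 0.07, 0.00 and -0.03 and did not pass. Of the 7 copper genes tested, 0 were higher and 2 lower in KYSE70, a share of lower calls near the 27.4% among all genes. ATP7B, a copper-exporting pump, stood at 3.43 FPKM in KYSE70 and 5.29 FPKM in KYSE450 (-0.53). ATOX1, a copper chaperone, stood at 21.6 FPKM in KYSE70 and 32.5 FPKM in KYSE450 (-0.60).

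**Figure D2:**
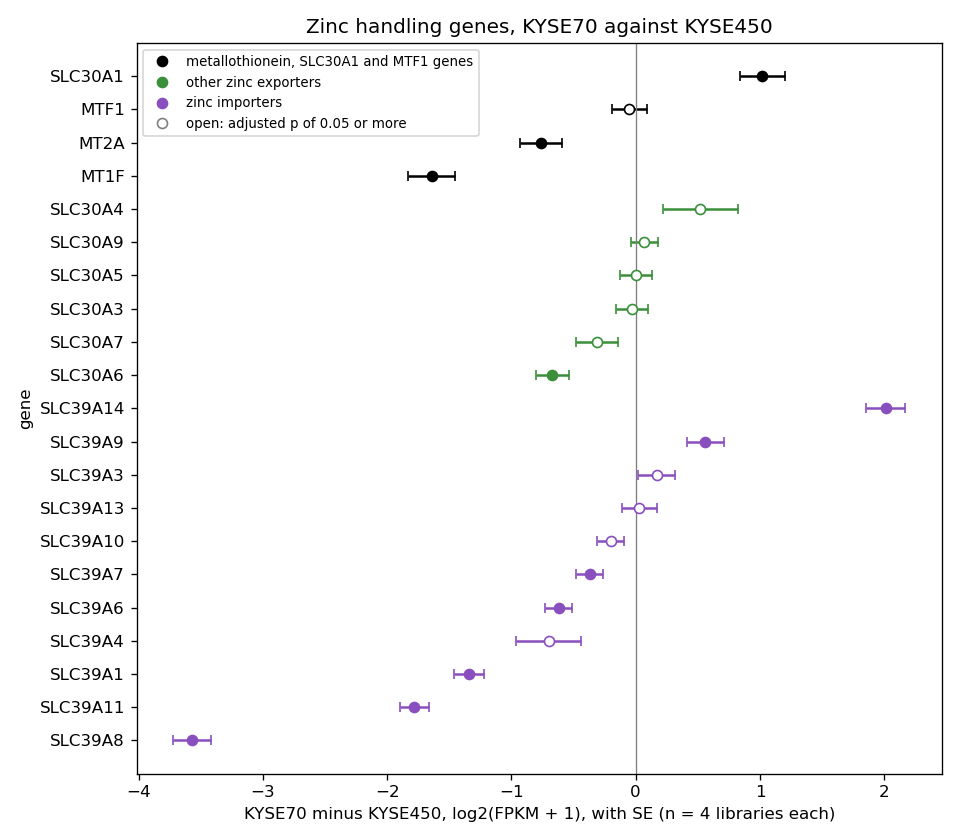
Differences in log2(FPKM + 1), KYSE70 minus KYSE450, with SE (n = 4 libraries in each line), for the 4 tested genes of the metallothionein and zinc response set, 6 other zinc exporters and 11 zinc importers; filled points passed the adjusted p of 0.05. SLC30A1 at 1.02 and SLC39A14 at 2.01 lie to the right, MT1F at -1.64 and SLC39A8 at -3.57, which both passed the filter through KYSE450 alone, to the left.

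Of 8 tested genes that answer metals and oxidants, as metallothioneins do, 5 were higher and 1 lower in KYSE70, where 26.6% of all genes were higher and 27.4% lower. Their median log2 difference was 1.33, beside -0.02 over all genes. HMOX1, the heme-degrading oxygenase induced by cadmium and oxidants, had 28.1 to 63.7 FPKM in KYSE70 against 1.19 to 3.33 FPKM in KYSE450 (3.57, SE 0.18, limma adjusted p = 1.1e-05). SLC7A11, which imports cystine for glutathione, averaged 52.0 FPKM in KYSE70 and 14.7 FPKM in KYSE450 (1.91), and TXNRD1, a thioredoxin reductase, 583 and 199 FPKM in the same order (1.56). DNAJB1, a cochaperone, averaged 405 FPKM in KYSE70 and 187 FPKM in KYSE450 (1.10). The heat shock gene HSPA1A went the other way, at 0.828 to 3.95 FPKM in KYSE70 against 33.7 to 121 FPKM in KYSE450 (-4.51, SE 0.30, limma adjusted p = 3.69e-05). Its near-identical copy HSPA1B stood the other way, at 92.5 to 200 FPKM in KYSE70 against 58.4 to 117 FPKM in KYSE450 (0.50, SE 0.20, limma adjusted p = 0.0742). Reads of these copies can be split between them, so the levels and the call of HSPA1A are uncertain.

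MT2A stood higher with NMR knockdown in both lines, but 0 of the 4 members tested passed. Limma called 0% of the 14311 genes for knockdown against its control, with 1794 genes and 1 member, MT2A, at an unadjusted p under 0.05, while voom, a fit of the recovered reads themselves, called 4 genes (0.0280%) and 0 members. The limma count was 36 to 41 genes without any 1 plasmid library, 580 and 582 without the KYSE70 knockdown or its control, and 4833 and 4832 without the KYSE450 knockdown or its control. MT2A had 24.3 FPKM with knockdown against 15.3 FPKM in its control in KYSE70, and 39.0 FPKM against 18.5 FPKM in KYSE450. The knockdown libraries were above both controls, so the groups did not overlap. The ratios of depth-scaled reads, knockdown over control, were 1.58 in KYSE70 (exact 95% interval 1.36 to 1.85) and 2.11 in KYSE450 (1.88 to 2.37), where the intervals cover counting error only. The log2 difference was 0.83 (SE 0.16, limma adjusted p = 0.268, higher in 2 of 2 lines).

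Leaving out 1 knockdown library or 1 knockdown control gave MT2A a log2 difference of 1.04 where the KYSE450 pair was left. It was 0.63 where the KYSE70 pair was left. Those fits hold a single knockdown pair and borrow the spread of the overexpression pairs for it.

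SLC30A1 also stood higher in both lines without passing. It had 7.9 FPKM with knockdown against 4.58 FPKM in its control in KYSE70, and 2.14 FPKM against 1.7 FPKM in KYSE450. Because of the line difference the groups overlapped, and only the pairs can be read. The reads gave ratios of 1.72 in KYSE70 (exact 95% interval 1.57 to 1.9) and 1.26 in KYSE450 (1.08 to 1.46). The log2 difference was 0.44 (SE 0.19, limma adjusted p = 0.4). SLC30A1 has a GC content of 38.0%, lower than all but 8.19% of the genes tested, and the KYSE70 pair followed GC content. After removal of the trends on GC content and gene length, its difference was 0.24 (adjusted p = 0.495) while that of MT2A was 1 (SE 0.12, limma adjusted p = 0.173). Without the KYSE450 knockdown or its control the difference of SLC30A1 was 0.67. Those fits rest on the KYSE70 pair alone, the pair that followed GC content.

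MT1F had 0.055 FPKM with knockdown against 0 FPKM in its control in KYSE70, 1 read against none, and 2.68 FPKM against 1.38 FPKM in KYSE450, 54 reads against 36. The KYSE450 ratio was 1.95 (exact 95% interval 1.26 to 3.06), and the log2 difference over both lines was 0.35 (SE 0.24, limma adjusted p = 0.527). MT1X had 0.602 FPKM against 0.37 FPKM in KYSE70 and 0.88 FPKM against 0.161 FPKM in KYSE450, from 13 against 8 and 21 against 5 reads. Both knockdown libraries of MT1X lay above both controls, and its unfiltered difference was 0.46 (SE 0.15, limma adjusted p = 0.68). Its KYSE70 ratio was 1.63, with an exact 95% interval of 0.625 to 4.53 that spans equal levels. In KYSE450 the ratio was 5.46 (2 to 18.5). MTF1 had 8.56 FPKM with knockdown against 8.19 FPKM in its control in KYSE70 and 8.22 FPKM against 10.1 FPKM in KYSE450, in opposite directions (-0.10, SE 0.17, limma adjusted p = 0.795), and turned to 0.06 without either KYSE450 library.

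In the knockdown pairs the summed fibroblast markers (5 of 5 measured) were 39.5 to 52.2 FPKM with knockdown against 31.9 to 33.1 FPKM in its controls, and the simple epithelial keratins KRT8 and KRT18 summed to 536 to 665 FPKM against 1175 to 1229 FPKM. The endothelial markers measured, VWF and CDH5, summed to 1.89 to 1.93 FPKM with knockdown against 0.733 to 0.995 FPKM in its controls. The squamous and leukocyte sums overlapped between these groups. The part of these markers in the differences of MT2A and SLC30A1 was not tested. The median log2 difference was 0.13 over the 6 other exporters, -0.10 over the 11 importers, -0.22 over the 7 copper genes and 0.09 over the 8 stress genes, beside -0.00 over all genes, and no gene of these lists was called.

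With NMR overexpression MT2A stood lower in both lines, again without passing. Limma called 0% of the 14311 genes against the overexpression control, with 148 genes and 1 of the 4 members, again MT2A, at an unadjusted p under 0.05, and voom also called 0%. The limma count was 3 genes without either KYSE70 library of the plasmid arm and 10 to 12 without any 1 lentiviral library. MT2A had 14.2 FPKM with overexpression against 18.4 FPKM in its control in KYSE70, and 29 FPKM against 41.7 FPKM in KYSE450. Each overexpression library was below the control of its line, and the groups overlapped across lines. The ratios of depth-scaled reads, overexpression over control, were 0.775 in KYSE70 (exact 95% interval 0.663 to 0.904) and 0.695 in KYSE450 (0.623 to 0.776). The log2 difference was -0.43 (SE 0.16, limma adjusted p = 1, lower in 2 of 2 lines). It stayed between -0.51 and -0.35 under the 15 alternatives and was called under none.

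MT1F had 1.74 FPKM with overexpression against 3.38 FPKM in its control in KYSE450, from 35 against 63 reads, a ratio of 0.515 (exact 95% interval 0.33 to 0.79). In KYSE70 it had 1 read against none, and the difference over both lines, -0.30 (SE 0.24, limma adjusted p = 1), turned to 0.07 without either KYSE450 library. MT1X had 0.286 FPKM with overexpression against 0.467 FPKM in its control in KYSE70 and 0.126 FPKM against 0.226 FPKM in KYSE450, from 7 against 12 and 3 against 5 reads (-0.16 unfiltered, SE 0.15, limma adjusted p = 1). In KYSE450, MT2A, MT1F and MT1X thus lay below their control with overexpression and above it with knockdown. MT3 in KYSE450 held 0 reads with knockdown against 1 in its control, and 3 against 3 with overexpression. These are too few to show whether it shared that pattern. The counts of MT1X are too few to show a difference with overexpression, since its intervals, 0.204 to 1.69 in KYSE70 and 0.0863 to 2.86 in KYSE450, span equal levels.

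SLC30A1 had 2.65 FPKM with overexpression against 2.48 FPKM in its control in KYSE70 and 0.993 FPKM against 1.2 FPKM in KYSE450. MTF1 had 6.85 FPKM against 6.33 FPKM in KYSE70 and 6.33 FPKM against 6.75 FPKM in KYSE450. Both genes stood in opposite directions in the lines, with differences of -0.04 for SLC30A1 (SE 0.19) and 0.01 for MTF1 (SE 0.17), each with a limma adjusted p of 1. Leaving out a library of either pair turned the sign of 1 of them, to 0.07 for SLC30A1 without a KYSE450 library and to -0.08 for MTF1 without a KYSE70 library of the arm.

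**Figure D3:**
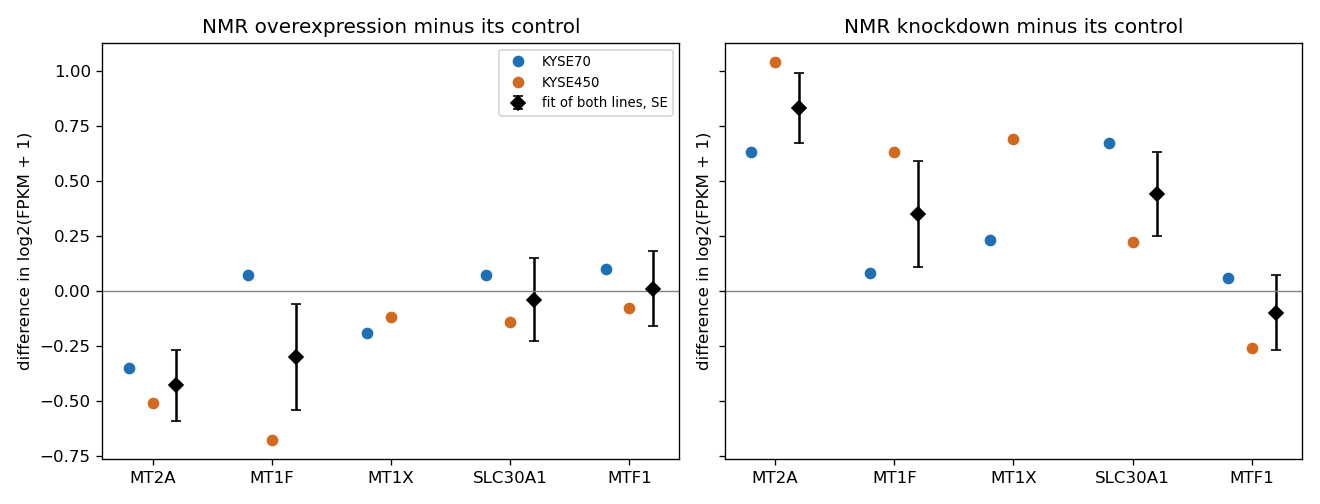
Differences in log2(FPKM + 1) between each manipulated library and the control of its line, and the fitted value over both lines with its SE for the 4 genes tested; MT1X lies below the filter and has no fitted value. MT2A is below 0 in both lines with overexpression (-0.35 in KYSE70, -0.51 in KYSE450) and above 0 in both with knockdown (0.63 and 1.04), and none of the fitted values passed.

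Between the arms, SLC30A1 and MTF1 had higher means in the lentiviral arm, but neither passed. Limma called 4.02% of genes between the lentiviral and the plasmid arm and 0 of the 4 members, with 2 members at an unadjusted p under 0.05, and voom called 6.16% of genes and 1 member, SLC30A1. Each arm holds both a manipulation and its control, in n = 4 libraries, and delivery cannot be told apart from anything else that differed between the arms. MTF1 had 8.19 to 10.1 FPKM in the lentiviral arm against 6.33 to 6.85 FPKM in the plasmid arm, with no overlap (8.76 ± 0.884 and 6.57 ± 0.274 FPKM, SD, n = 4 each). The log2 difference was 0.36 (SE 0.14, limma adjusted p = 0.164), 0.31 in KYSE70 and 0.42 in KYSE450. Between the controls alone, the depth-scaled reads of MTF1 in the knockdown control over the overexpression control were 1.29 in KYSE70 (exact 95% interval 1.18 to 1.42) and 1.49 in KYSE450 (1.37 to 1.63).

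SLC30A1 averaged 4.08 ± 2.85 FPKM in the lentiviral arm and 1.83 ± 0.857 FPKM in the plasmid arm (SD, n = 4 each). Within each line both lentiviral libraries were above both plasmid libraries, with differences of 0.98 in KYSE70 and 0.48 in KYSE450. The pooled difference was 0.73 (SE 0.18, limma adjusted p = 0.069). In the controls alone it was 0.49 for SLC30A1 (adjusted p = 0.437) and 0.42 for MTF1 (limma adjusted p = 0.399). It was called for SLC30A1 at 0.89 without KYSE450 knockdown (adjusted p = 0.0317) and at 1.07 with voom on the reads (SE 0.20, adjusted p = 0.0346). The count of all genes called depended on single libraries, being 0 without the KYSE70 knockdown, the KYSE450 knockdown control or the KYSE450 overexpression control, 7 and 9 without the KYSE70 knockdown control or overexpression control, 89 and 172 without the KYSE70 or KYSE450 overexpression library, and 2463 without the KYSE450 knockdown.

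MT2A averaged 24.3 ± 10.5 FPKM in the lentiviral arm and 25.8 ± 12.3 FPKM in the plasmid arm (SD, n = 4 each), overlapping throughout (-0.06, SE 0.17, limma adjusted p = 0.852). The controls were less alike than these means: in KYSE450 the knockdown control had 18.5 FPKM against 41.7 FPKM in the overexpression control, a ratio of 0.445 (exact 95% interval 0.396 to 0.499), and in KYSE70 15.3 FPKM against 18.4 FPKM, a ratio of 0.836 (0.713 to 0.978). So the KYSE450 knockdown library, at 39.0 FPKM, lay below the KYSE450 control of the plasmid arm. MT1F followed the same order in KYSE450, at 1.38 FPKM in the knockdown control against 3.38 FPKM in the overexpression control, a ratio of 0.407 (exact 95% interval 0.263 to 0.623). Its arm difference was -0.11 (SE 0.19, limma adjusted p = 0.734).

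Whether the line difference itself changed with the arm was tested as an interaction, KYSE70 minus KYSE450 in the lentiviral arm minus the same in the plasmid arm. Limma called 6.37% of genes and 0 of the 4 members, with 1 member, MT2A, at an unadjusted p under 0.05, and voom called 7.03% of genes and 0 members. For MT2A the value was 0.60 (SE 0.23, limma adjusted p = 0.149), and for SLC30A1 0.51 (SE 0.27, limma adjusted p = 0.261). MT2A was called at 0.80 without either knockdown library (adjusted p = 0.00361 without that of KYSE70 and 0.00406 without that of KYSE450), and at 0.79 with GC and length trends removed (adjusted p = 0.0345). SLC30A1 was called at 0.74 without either knockdown control (adjusted p = 0.039 without that of KYSE70 and 0.0364 without that of KYSE450). The count of all genes called, 912, was 330 to 462 without any 1 library of the plasmid arm and 4069 to 6101 without any 1 of the lentiviral arm.

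Among the other lists, the arm comparison called 1 of 11 zinc importers, 1 of 8 stress genes and 2 of 4 glucocorticoid-induced genes, beside 4.02% of all genes. All 4 were higher in the lentiviral arm, as were 430 of the 575 genes called in all. SLC39A10, a plasma membrane zinc importer named here after its values were seen, had 48.5 to 73.9 FPKM in the lentiviral arm against 34.9 to 43.1 FPKM in the plasmid arm, with no overlap (0.60, SE 0.11, limma adjusted p = 0.039). SLC7A11 differed by 0.75 in KYSE70 and 1.57 in KYSE450 (pooled 1.16, SE 0.22, limma adjusted p = 0.042). PER1, a clock gene that glucocorticoids induce, had 21.9 to 60.8 FPKM in the lentiviral arm against 8.02 to 11.8 FPKM in the plasmid arm (1.64, SE 0.25, limma adjusted p = 0.0321). KLF9, another such gene, had 2.08 to 4.05 FPKM against 0.366 to 1.65 FPKM in the plasmid arm (1.25, SE 0.19). KLF9 reached the filter through the lentiviral arm alone, so that it had to differ and its call supports nothing. FKBP5, a cochaperone of the glucocorticoid receptor, was called between the lines instead, at 12.1 to 16.5 FPKM in KYSE70 against 3 to 4.1 FPKM in KYSE450 (1.79, limma adjusted p = 0.000165). MT2A, which glucocorticoids also induce, overlapped between the arms, and its lentiviral controls were below its plasmid controls in both lines. A part of glucocorticoids in the levels of MT2A or of these genes was not tested.

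The interaction called 1 of 7 copper genes and 2 of 8 stress genes, beside 6.37% of all genes. All 3 were lower, against 220 lower and 692 higher among all genes called. COX17, which delivers copper to cytochrome oxidase, had 31.3 and 61.9 FPKM in the KYSE70 knockdown and its control against 103 and 107 FPKM in the KYSE70 overexpression and its control, while its KYSE450 libraries held 78.6 to 94.6 FPKM (-1.28, SE 0.26, limma adjusted p = 0.0407). TXNRD1 gave -1.27 (SE 0.27, limma adjusted p = 0.0422). GCLC, a ligase subunit of glutathione synthesis that was named after its values were seen, gave -2.06 (SE 0.45, limma adjusted p = 0.0466). No member passed in this comparison.

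The genes most like the metallothioneins were sought by the Pearson correlation with the mean of MT2A and MT1F over the 8 libraries, each gene centred within its line, among 10383 genes of at least 5 FPKM on average. The highest were UBL4A (r = 0.964), RP11-440L14.1 (r = 0.961), ANXA3 (r = 0.955), MCMBP (r = 0.954) and MTFMT (r = 0.914), a description over libraries that share 2 lines and their arms. ANXA3 reached the mean of 5 FPKM through KYSE450 alone, at 19.2 to 25.3 FPKM there against 0.0299 to 0.102 FPKM in KYSE70. Its r therefore comes mainly from the KYSE450 libraries. The averaged profile also varied more in KYSE450. Centred within the line, MT1F ran from -0.04 to 0.04 in KYSE70 and from -0.43 to 0.45 in KYSE450. MT2A ran from -0.30 to 0.44 in KYSE70 and from -0.70 to 0.43 in KYSE450. The r of every gene listed thus leans on the KYSE450 libraries. UBL4A had 94.7 and 37.7 FPKM in KYSE70 and KYSE450 knockdown against 90.3 and 33.5 FPKM in its controls, and 89.2 and 34.9 FPKM with overexpression against 91.4 and 40.7 FPKM in its controls. UBL4A was chosen for the highest r over these same libraries, so its directions had to be much like those of MT2A. It stood above its control in both lines with knockdown and below it in both with overexpression, in far smaller steps than MT2A.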

How the data were processed

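The 8 libraries of total RNA each have 1 table of genes. The deposited values are FPKM, a unit taken from the values themselves, since no label or header names it. Tools listed in the submitters' processing notes are HTSeq 0.6.1 and TopHat2 2.0.9, with the build hg19 and no roles. The sources used here do not give the annotation, strand setting or read length. Whole reads were recovered from the steps between values (all 30872 genes above 0 in at least 2 libraries came out whole within 0.02), 26401805 to 37937856 per library; intervals from them cover counting error only.

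Genes with a mean of at least 1 FPKM, 14311 in all, were fitted as log2(FPKM + 1) with limma 3.58.1 (trend) in R 4.3.3, with Benjamini-Hochberg adjustment over all genes tested and a threshold of 0.05. Overexpression, knockdown and the interaction came from a model with a term for each of the 4 pairs (2 residual degrees of freedom), and line and arm from a model of line and group. Replicate numbers pair the libraries because each number is 1 cell line, and the pair terms are the replicate block. Of the 8 members, 4 passed the filter. Sequence windows and motifs were counted in Python 3.11.15, and exact intervals with SciPy 1.17.1.

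The members and lists were chosen with earlier results of these data known. All members are named. Of the other lists, up to 5 called genes are named, lowest adjusted p first, otherwise the 3 with the highest mean, along with the 5 genes most like the metallothioneins. Alternatives were another pseudocount, no filter, median-ratio scaling, leaving out each library, no block, fewer libraries, voom on the recovered reads and, chosen after seeing the data, removal of trends on GC content and length (loess, span 0.3).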

Additional observations from a re-analysis of the deposited data

Results flagged for a closer look

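Among the 5 detected genes, each examined in the 4 libraries of each line (10 groups), 1 library stood apart from the other 3: MT1X in KYSE450 knockdown, at 0.88 FPKM. The next value was 0.226 FPKM in the overexpression control and the lowest 0.126 FPKM with overexpression, so the gap took 0.867 of the whole range, above Dixon's 95% critical value of 0.829 for 4 samples. The library held 21 MT1X reads, and the other KYSE450 libraries held 3 to 5. Against the knockdown control alone the ratio of depth-scaled reads was 5.46 (exact 95% interval 2.00 to 18.5, counting error only), and MT1X shares 18.3% of its 50-base windows with other genes. Chance flags about 1 in 20 such groups.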

How the results depend on the processing

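The line calls of MT2A and SLC30A1 held under all 13 alternatives of that comparison; MT1F had to differ there. Leaving out 1 library at a time gave 0 to 12 genes called for overexpression, 36 to 4833 for knockdown, 0 to 2463 between the arms and 330 to 6101 for the interaction, and 0 to 2, 0 to 1 and 0 to 1 members called for the last 3. With the 4 libraries of a manipulation alone, 12 genes were called for overexpression and 37 for knockdown; knockdown gave 3 genes with a pseudocount of 0.1 and 4 with voom. Between the arms, 575 genes became 0 without the filter, 0 without the replicate block, 0 in controls alone, 881 with voom (1 member) and 1012 with GC and length trends removed. The interaction's 912 became 0 without the filter and 1651 with those trends removed (1 member). Without the replicate block, overexpression and knockdown kept 0 calls. Signs turned for small values: with trends removed, MTF1 gave -0.01 for overexpression and MT2A 0.06 between the arms. Leaving out 1 library gave, for overexpression, -0.68 to 0.07 for MT1F, -0.14 to 0.07 for SLC30A1 and -0.08 to 0.10 for MTF1; for MTF1, -0.26 to 0.06 with knockdown, -0.10 to 0.02 between lines and -0.28 to 0.04 for the interaction; -0.27 to 0.05 for MT1F and -0.22 to 0.11 for MT2A between the arms; and -0.14 to 0.60 for MT1F in the interaction. The causes were not tested, except that fits without a library have fewer samples. Depth limits MT1F in KYSE70 and MT1X everywhere, at 1 to 21 reads a library where detected.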

Other observations

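Pseudogenes of the family carried a few reads. MT1XP1 had 3.25 FPKM (16 reads) in KYSE70 knockdown against 0.61 FPKM (3 reads) in its control, and 0.198 to 0.854 FPKM in the 7 libraries other than KYSE70 knockdown. MT1P1 was above 0 in 6 of 8 libraries and MT2P1 in 5 of 8, at 1 to 5 reads each.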
